A study of Schmidtea mediterranea with 18 samples.

Results

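The earliest time point of a *hippo* inhibition series in the planarian *Schmidtea mediterranea* was compared with its controls. The 3 libraries from *hippo (RNAi)* animals at 1 week (252O, 253O and 254O) were set against the 3 libraries from *gfp (RNAi)* controls of the same week (249O, 250O and 251O), chosen by their labels, so that 6 of the 18 libraries of the series are described. All animals, controls included, were starved, belonged to the asexual BCN-10 clonal line and were injected with double-stranded RNA. Each library was made from the poly(A) RNA of a pool of 5 whole animals. For the controls the injected double-stranded RNA targeted *gfp*, which has no counterpart in the planarian genome. The other 12 libraries, *hippo (RNAi)* and control at 3 and 4 weeks, have 3 per group. They gave the later values and a shared estimate of the spread. Because all animals came from 1 clonal line and each library averages several of them, the spread is that between pools and not between single animals. The *hippo* transcript could not be matched to an identifier, so the knock-down was not checked in these libraries, and the tissue was not checked against marker genes for the same reason. By quantitative PCR, the paper reports significantly lower *hippo* mRNA from the first week on.

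The Hippo pathway is a kinase cascade known from flies and mammals. When it is active, Hippo (MST in mammals) activates the kinase Warts (LATS), which holds the co-activator Yorkie (YAP and TAZ) out of the nucleus. Loss of the cascade is known there for excess growth, and its kinases also act in centrosome duplication, spindle assembly and the end of mitosis. Planarians replace all their tissues from dividing stem cells called neoblasts, so whole-animal RNA holds dividing and differentiated cells together. In such samples, more cells of a type and more RNA per cell cannot be told apart.

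The deposited values are TPM, length-corrected transcript abundances whose sum is fixed and equal for all libraries. They keep no sequencing depth, so the counting error is unknown. The comparison covered 28735 of 41745 transcripts, those with a mean of at least 1 TPM, on the log2(TPM + 1) scale, where fold changes of low transcripts are understated. A transcript was called at a Benjamini-Hochberg adjusted p under 0.05 from limma, over all tested transcripts. The 6 libraries were alike in general terms: Spearman's rho across transcripts ranged from 0.950 to 0.957 between controls, from 0.961 to 0.963 between *hippo (RNAi)* libraries, and from 0.951 to 0.964 between the groups. The library numbers of the 2 groups follow each other, and the labels give no batch. A batch that went with treatment cannot be told apart from it.

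Among the transcripts called at 1 week in the full comparison, rises outnumbered falls and had a smaller median size. Of the tested transcripts 0.849% were called. Of these, 188 were higher in *hippo (RNAi)* animals (0.654% of those tested) and 56 were lower (0.195%). The median log2 fold change was 0.36 for the rises and -0.66 for the falls. A change of at least 1.5-fold was reached by 37 rises, or 19.7% of them, and by 33 falls, or 58.9%. At least 2-fold was reached by 14 rises and 11 falls. The same effects chose these transcripts and are enlarged by that choice, so the sizes are a description. The order of the counts depended on the spread used: with that of the 6 libraries of 1 week alone, 6 rises and 23 falls were called by limma. With the libraries rescaled by median ratios, 141 rises and 72 falls were called, so that rises made up 66.2% of the calls instead of 77.0%. The median log2 fold change of all tested transcripts was 0.02 before this rescaling and 0.00 after it.

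In sum, each *hippo (RNAi)* library was above every control for the rises and below every control for the falls. The transcripts called higher added up to 20930, 22100 and 22230 TPM in the controls 249O, 250O and 251O and to 25670, 29030 and 30940 TPM in the *hippo (RNAi)* libraries 252O, 253O and 254O. The transcripts called lower added up to 12140, 12130 and 11700 TPM in control pools and to 6652, 7254 and 6120 TPM in *hippo (RNAi)* pools. Since these transcripts were picked by the same comparison, the sums are a description. Among the *hippo (RNAi)* libraries, 252O lay nearest to the controls for 152 of the 188 rises, whereas 253O lay nearest for 34 of the 56 falls.

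The number of calls depended on single libraries. Without 252O, 327 transcripts were called higher and 76 lower. Without 254O the counts were 33 and 22, without 253O 49 and 32, and without control 249O 53 and 22. A total of 46 transcripts, 29 rises and 17 falls, were called in the full comparison and in each of the 6 fits that left out 1 library. When the spread was estimated from the 6 libraries of 1 week alone, 6 rises and 23 falls were called by limma, and 2581 transcripts had an unadjusted p under 0.05, against 3595 in the full comparison. Of the 56 falls 18 were called in that fit, and of the 188 rises 4. With array weights, which also change the spread, 140 rises and 33 falls were called. A total of 14 transcripts were called in every alternative fit that held the same transcripts, and 13 of these 14 were falls.

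**Figure D1:**
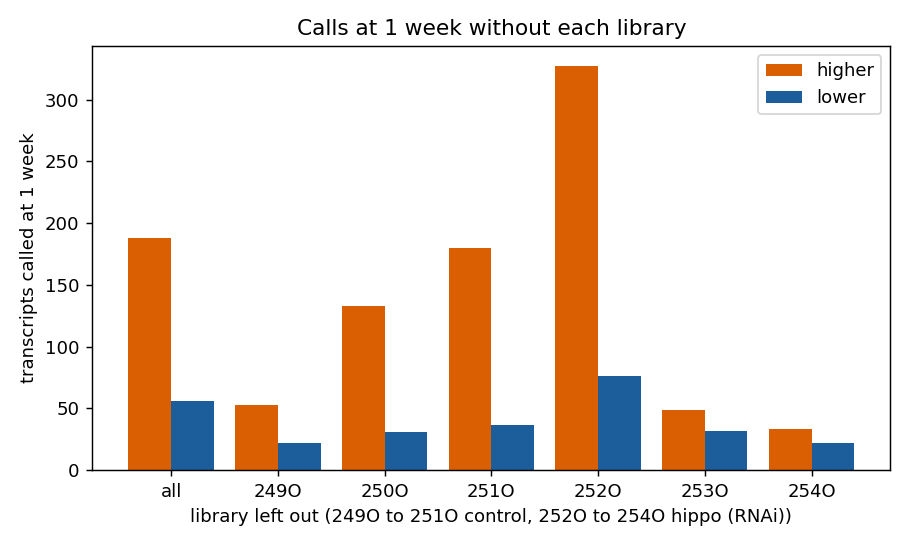
Transcripts called higher (orange) and lower (blue) in *hippo (RNAi)* animals at 1 week, with all libraries and with each of the 6 libraries left out in turn. The bars start at 0. The count of rises ranged from 33 without 254O to 327 without 252O, and that of falls from 22 to 76.

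Abundant transcripts were called more often. Of transcripts with a mean between 1 and 3 TPM 0.175% were called, and of those at 100 TPM and over 4.26%. The median standard error fell in the same order, from 0.201 to 0.042 on the log2 scale. A small early change could therefore be seen mainly in abundant transcripts, and a missing call at low abundance is not evidence that a transcript did not move.

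Transcripts outside the study's list of named genes are known only by their identifiers in the dd_Smed_v6 assembly. The 2 falls and the 2 rises of the largest size among transcripts called in all fits without 1 library are given here. No name is paired with them in the files used.

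The transcript dd_Smed_v6_4384_0_1 fell most. It was at 33.2, 39.5 and 41.9 TPM in the controls and at 4.56, 5.13 and 4.14 TPM in *hippo (RNAi)* pools. The groups were far apart, with group means of 38.2 ± 4.49 and 4.61 ± 0.49 TPM (SD, n = 3), an 8.28-fold difference. The log2 fold change was -2.80 (standard error, SE, 0.08, limma adjusted p = 8.47e-11). It was -3.22 at 3 weeks and -3.20 at 4 weeks, so that 87.5% of the 4-week effect was present at 1 week.

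The transcript dd_Smed_v6_8432_0_1 was at 44.4, 50.6 and 35.9 TPM in control pools and at 14.3, 16.7 and 16.9 TPM in *hippo (RNAi)* pools. All 3 *hippo (RNAi)* values lay below the lowest control. Its log2 fold change was -1.39 (SE 0.19, limma adjusted p = 0.00474), against -1.73 and -1.76 at 3 and 4 weeks. The difference between the effects at 4 weeks and 1 week, -0.38, was not called (adjusted p = 0.480 from limma).

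Among the rises, dd_Smed_v6_1616_0_1 was at 8.43, 11.8 and 8.23 TPM in control pools and at 18.9, 34.1 and 32.9 TPM in *hippo (RNAi)* pools. Library 252O held the lowest of the 3 raised values, which still exceeded every control. The log2 fold change was 1.47 (SE 0.20, limma adjusted p = 0.00410). It grew to 3.08 at 3 weeks and 3.39 at 4 weeks, and the change from 1 to 4 weeks was itself called, at 1.92 (adjusted p = 0.000527 from limma). With the 6 libraries of 1 week alone the adjusted p was 0.195 from limma.

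The transcript dd_Smed_v6_5675_0_28 was listed at 0 in all 3 controls and at 3.59, 3.11 and 6.77 TPM in *hippo (RNAi)* pools. At 3 weeks it was at 3.03, 2.69 and 4.91 TPM in *hippo (RNAi)* pools and at 0 in controls, and at 4 weeks it was listed at 0 in every library. Its mean over the 18 libraries, 1.34 TPM, came only from the *hippo (RNAi)* libraries of 1 and 3 weeks. It thus passed the filter of 1 TPM only through groups in which it was high. The groups at 0 add no spread to its standard error, so its call is a description. It is 1 of 35 transcripts listed under one assembly number, between which reads can be divided. Their sum was 91.8 ± 13.1 TPM in control pools and 107 ± 6.07 TPM in *hippo (RNAi)* pools (SD, n = 3), and this sum was not called (adjusted p = 0.428 from limma). No other transcript of that number was called.

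**Figure D2:**
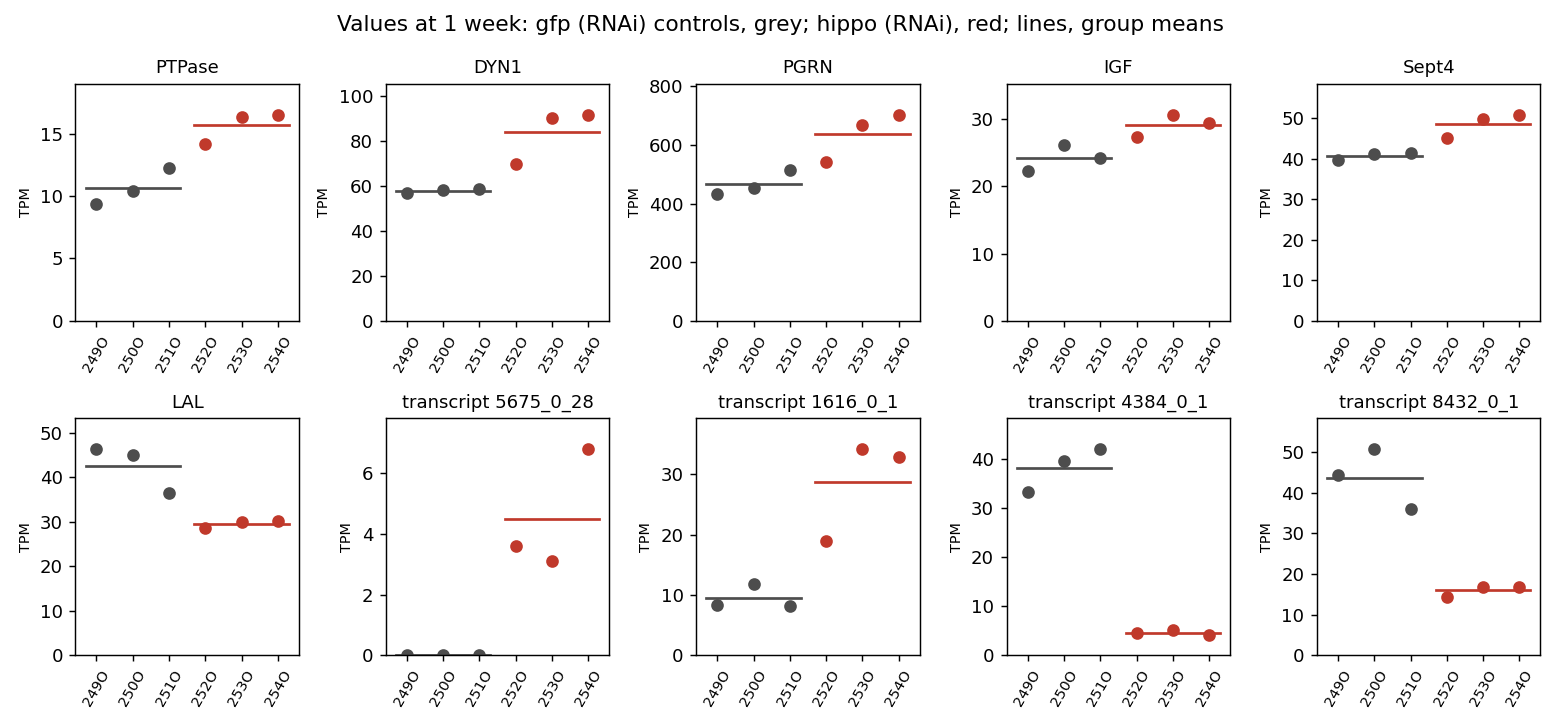
TPM in each library of 1 week for the 6 called genes of the study's cell cycle list and for 4 transcripts known by identifier (shown without the prefix dd_Smed_v6_). Grey points are *gfp (RNAi)* controls, red points *hippo (RNAi)* animals, and lines are group means of 3 libraries. The groups did not overlap in any panel, and for *dynamin 1-like* (DYN1) and *progranulin* (PGRN) the *hippo (RNAi)* library 252O was the lowest of its group.

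The study's list pairs 20 genes related to the cell cycle with transcripts. The authors chose it from this series, so it is not independent evidence of a direction. Its first section holds 12 genes with a role in cell cycle progression and its second 8 genes that act downstream of Hippo in mitosis. At 1 week 6 of the 20 were called, 5 higher and 1 lower, beside 0.849% of all tested transcripts. All 6 belonged to the first section, and none of the 8 genes of the second section was called by limma, although 4 of these (*polo-like kinase 1*, *aurora family protein kinase 1*, *BUB1* and *afadin*) had an unadjusted p under 0.05. None of the 20 changed by 1.5-fold or more on the log2(TPM + 1) scale. The median log2 fold change of the 20 genes was 0.03, beside 0.02 over all tested transcripts, and the median size without regard to direction was 0.14, beside 0.09. By limma 12 of the 20, and 4 of the 8 in the second section, had an unadjusted p under 0.05. The share over all tested transcripts was 12.5%. The groups did not overlap for 7 genes that were higher and 5 that were lower, where the share over all tested transcripts was 9.02% and 5.88%.

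The called genes include growth factors and a gene of cytokinesis. *dynamin 1-like*, a member of a family of GTPases that constrict membranes and bind microtubules, was at 57.0, 58.1 and 58.6 TPM in control pools and at 69.7, 90.0 and 91.7 TPM in *hippo (RNAi)* pools. The controls lay close together, while 252O was well below the other *hippo (RNAi)* libraries. The log2 fold change was 0.52 (SE 0.08, limma adjusted p = 0.00605), and *dynamin 1-like* was called without any 1 of the 6 libraries, with adjusted p from limma between 1.24e-05 and 0.0427.

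*progranulin*, which encodes a secreted growth factor known to stimulate cell division in mammals, was at 433, 454 and 516 TPM in control pools and at 541, 670 and 704 TPM in *hippo (RNAi)* pools. The highest control and the lowest *hippo (RNAi)* library were near each other. Its log2 fold change was 0.44 (SE 0.08, limma adjusted p = 0.0158). *insulin-like growth factor*, a secreted signal that promotes growth through the insulin receptor pathway in animals, was at 22.4, 26.2 and 24.2 TPM in control pools and at 27.3, 30.7 and 29.5 TPM in *hippo (RNAi)* pools. Its log2 fold change was 0.26 (SE 0.06), and its call was close to the threshold (adjusted p = 0.0441 from limma). The call was lost with no filter and with array weights (adjusted p = 0.0573 and 0.0866 from limma).

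*protein tyrosine phosphatase*, listed for the control of entry into mitosis, was at 9.37, 10.4 and 12.3 TPM in control pools and at 14.1, 16.3 and 16.5 TPM in *hippo (RNAi)* pools. The log2 fold change was 0.52 (SE 0.10, limma adjusted p = 0.0203). A second, less abundant transcript of this gene was at 2.09 ± 0.69 TPM in control pools and 3.25 ± 0.89 TPM in *hippo (RNAi)* pools (SD, n = 3). Its groups overlapped and it was not called. *septin 4* encodes a member of the septins, filament proteins of the division furrow. It was at 39.7, 41.04 and 41.4 TPM in control pools and at 45.1, 49.9 and 50.8 TPM in *hippo (RNAi)* pools, a log2 fold change of 0.25 (SE 0.04, limma adjusted p = 0.0121).

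*lysosomal acid lipase*, an enzyme that splits cholesteryl esters and triglycerides in lysosomes and is listed for the transition from G1 to S phase, was the called gene that fell. It was at 46.3, 45.0 and 36.4 TPM in control pools and at 28.7, 30.04 and 30.1 TPM in *hippo (RNAi)* pools. Here the *hippo (RNAi)* libraries lay close together and the controls were spread out. The log2 fold change was -0.50 (SE 0.09, limma adjusted p = 0.0144).

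The calls other than *dynamin 1-like* were each lost in some fits without 1 library, and all 6 were lost with the spread of the 1-week libraries alone. With that spread 9 of the 20 genes had an unadjusted p under 0.05 by limma, beside 2581 of all 28735 tested transcripts. The smallest adjusted p of the 20 was 0.218 from limma. *septin 4* lost its call without 249O, 253O or 254O. *lysosomal acid lipase*, *protein tyrosine phosphatase* and *progranulin* lost it without 249O, 250O, 253O or 254O, and *insulin-like growth factor* without 249O, 251O, 253O or 254O. The largest adjusted p reached in these fits was 0.186 from limma, for *insulin-like growth factor*. With 3 libraries against 3, an exact two-sided permutation test of a single gene cannot go below p = 0.1, the value that all 6 genes reached.

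**Figure D3:**
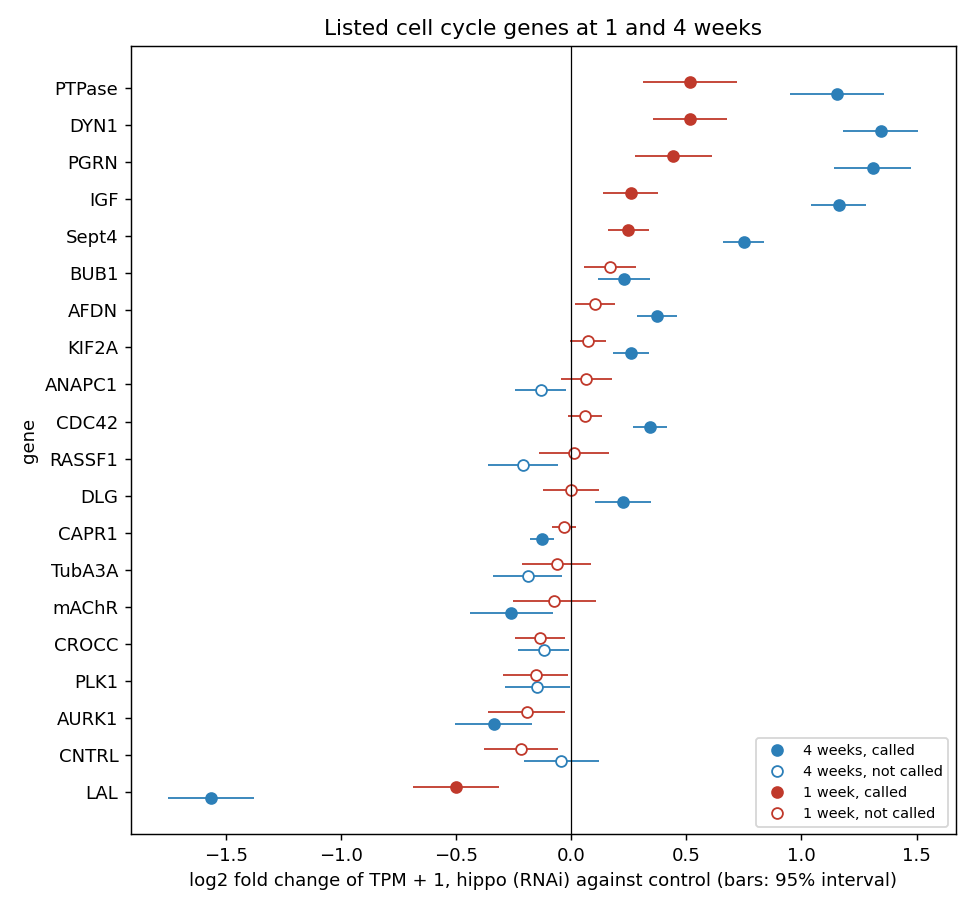
Log2 fold change of TPM + 1 in *hippo (RNAi)* animals against controls at 1 week (red) and 4 weeks (blue) for the 20 listed genes, with 95% intervals from limma. Filled points were called and open points were not. The 6 genes called at 1 week sit farthest from 0, and their effects at 4 weeks were larger.

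The other 14 listed genes had adjusted p between 0.178 and 1 from limma and log2 fold changes of at most 0.22 in size at 1 week. Among genes of the centrosome and cilium, *centriolin* (required to complete cytokinesis) and *rootletin* (the protein of the ciliary rootlet) had groups that did not overlap without being called. *rootletin* was at 123, 117 and 117 TPM in control pools and at 108, 110 and 107 TPM in *hippo (RNAi)* pools. Its log2 fold change was -0.14, with a 95% interval from -0.24 to -0.03 (adjusted p = 0.278 from limma). *centriolin* had a log2 fold change of -0.22, with an interval from -0.38 to -0.06. A second, less abundant transcript of *centriolin* was at 0.08.

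The mitotic kinases and checkpoint genes gave small values in both directions. *aurora family protein kinase 1*, of the family that builds the bipolar spindle, was at 6.79, 6.46 and 7.06 TPM in control pools and at 5.91, 6.25 and 5.26 TPM in *hippo (RNAi)* pools. Every *hippo (RNAi)* value lay below the controls, but the log2 fold change of -0.19 was not called (95% interval from -0.36 to -0.03). *BUB1*, a kinase of the spindle checkpoint, was at 12.3, 12.5 and 11.5 TPM in control pools and at 13.0, 13.97 and 14.1 TPM in *hippo (RNAi)* pools. Its log2 fold change of 0.17 had an adjusted p of 0.178 from limma, the lowest among the genes that were not called.

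Of the genes listed for spindle orientation, and *CDC42*, none was called at 1 week. *polo-like kinase 1*, a mitotic kinase, had groups that did not overlap and a log2 fold change of -0.15, with a 95% interval from -0.29 to -0.01 (limma adjusted p = 0.349). A second, less abundant transcript of *polo-like kinase 1* was at -0.01, with groups that overlapped. At 3 weeks that transcript was called lower, at -0.42 (adjusted p = 0.0256 from limma). *afadin*, like the first transcript of *polo-like kinase 1*, had an interval that did not include 0. *afadin*, a protein that links cell junctions to actin, was at 10.8, 10.6 and 11.1 TPM in control pools and at 11.1, 11.5 and 12.5 TPM in *hippo (RNAi)* pools. The groups only just failed to overlap, and the log2 fold change was 0.10 (95% interval from 0.01 to 0.19). *discs large*, a scaffold protein of cell polarity, had a log2 fold change of 0.00, with an interval from -0.12 to 0.12, and *kinesin family member 2A*, a motor that shortens microtubules, one of 0.07, with an interval from -0.0031 to 0.15. *CDC42*, a small GTPase of cell polarity, was at 219 ± 7.62 TPM in control pools and 228 ± 7.75 TPM in *hippo (RNAi)* pools (SD, n = 3), and the groups overlapped.

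Of these 14 genes 11 were called at 3 or 4 weeks by their most abundant transcript. Of all tested transcripts 10.2% were called higher and 5.27% lower at 3 weeks, and 13.0% and 8.54% at 4 weeks. The authors chose the list from this series, so these later calls are not independent evidence. First called at 1 week were the growth factors, *dynamin 1-like*, *protein tyrosine phosphatase*, *septin 4* and *lysosomal acid lipase*, and others were first called later. A first call is not a first response. The test of the effect at 4 weeks minus that at 1 week was called for 9 of the 20 genes, including all 6 that were called at 1 week. Over all tested transcripts it was called more positive for 6.25% and more negative for 3.47%. Of the 11 genes first called at 3 or 4 weeks it was called for 3. For the other 8 a later onset was not shown, with adjusted p from limma between 0.0945 (*caprin 1*, which encodes an RNA-binding protein listed for progression of G1) and 0.718 (*BUB1*). *CDC42*, *kinesin family member 2A* and *afadin* were not called at 1 week, were called at 4 weeks, and had a called difference between these weeks. The share of the 4-week log2 fold change present at 1 week was 44.8% for *protein tyrosine phosphatase*, 38.4% for *dynamin 1-like*, 33.8% for *progranulin*, 33.2% for *septin 4*, 32.1% for *lysosomal acid lipase* and 22.3% for *insulin-like growth factor*.

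Most of the early calls were made again at 3 and 4 weeks. The group means of these weeks come from other libraries, but all weeks share one estimate of the spread, so the calls are not independent of each other. Of the 188 rises 161 were called higher at 3 weeks, where 10.2% of tested transcripts were called higher, and 159 at 4 weeks, where 13.0% were. At both weeks 158, or 84.0%, were called higher, beside 2501 of the 28735 tested transcripts, and 26 at neither. None was called lower at 3 or 4 weeks. Of the 56 falls 49 were called lower at 3 weeks, beside 5.27% of all tested transcripts, and 46 at 4 weeks, beside 8.54%. These 46, or 82.1%, were called lower at both weeks, beside 1151 of the 28735 tested transcripts, and 7 at neither. At 4 weeks 1 of the falls was called higher.

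Among the transcripts called at 1 week, the median sizes of the rises and the falls ran differently with time. The median log2 fold change of the 188 rises was 0.36 at 1 week, 0.72 at 3 weeks and 0.77 at 4 weeks. That of the 56 falls was -0.66, -0.69 and -0.58. For the 158 rises called at all 3 time points, the effect at 1 week was a median of 34.9% of that at 4 weeks (quartiles 29.8% and 44.0%). For the corresponding 46 falls it was 97.1% (quartiles 74.5% and 120%). Among the 46 transcripts called in every fit without 1 library, the medians were 41.5% over 28 rises and 104% over 16 falls called at all time points. When only changes of at least 1.5-fold at 1 week were kept, they were 39.9% over 13 rises and 102% over 29 falls. The effects at 1 week chose these transcripts and are enlarged by that choice, so the shares are a description. For transcripts chosen by their calls at 3 and 4 weeks, whatever their effect at 1 week, the medians were 24.0% for rises and 16.9% for falls. In the 100 with the largest 4-week effect they were 27.5% and 30.4%.

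The test of the difference between 4 weeks and 1 week was called more positive for 6.25% and more negative for 3.47% of all tested transcripts. Among the 188 rises it was called in the direction of a further rise for 139 and in the opposite direction for 18, and among the 56 falls it was called further down for 5 and opposite for 5. It uses the 1-week libraries that chose these transcripts, which enlarges their effects at 1 week, so these counts are a description.

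**Figure D4:**
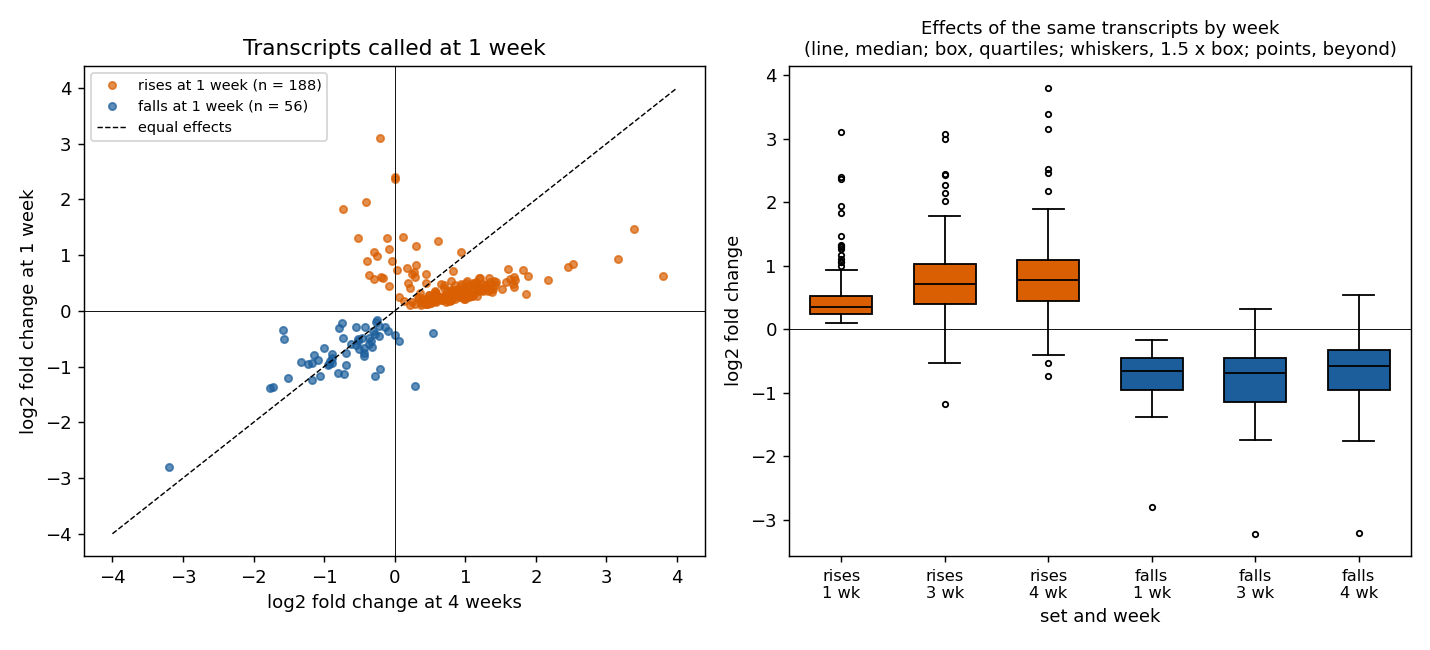
Left, log2 fold change at 1 week against that at 4 weeks for the 188 rises (orange) and 56 falls (blue) called at 1 week, with a dashed line of equal effects. Right, the effects of the same transcripts by week. The median rise went from 0.36 to 0.77 between 1 and 4 weeks, and the median fall from -0.66 to -0.58.

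In the reverse reading, transcripts were chosen by their calls at 3 and 4 weeks and then read at 1 week. Their effects at 1 week did not choose them. The 1-week libraries still entered the shared estimate of the spread, so the choice favours transcripts whose groups are tight at 1 week too. Calls were also more frequent among abundant transcripts, which had smaller standard errors. The shares set beside those of all tested transcripts are therefore a description. Of the 2501 transcripts called higher at both later weeks, 87.1% had a positive log2 fold change at 1 week, with a median of 0.09. The groups did not overlap at 1 week, with the *hippo (RNAi)* libraries higher, for 35.9% of them, beside 9.02% of all tested transcripts. Of the 1151 called lower at both later weeks, 78.5% had a negative log2 fold change, with a median of -0.05, and 25.5% had groups that did not overlap, beside 5.88%. Early calls covered 6.32% of the first set and 4.00% of the second. Of all tested transcripts 0.654% were called higher and 0.195% lower at 1 week, and their median log2 fold change was 0.02.

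In the 100 transcripts with the largest 4-week effect of each set, the median log2 fold change at 1 week was 0.40 for those higher later and -0.29 for those lower later. This was a median of 27.5% and 30.4% of each transcript's effect at 4 weeks, the effect by which these transcripts were chosen. Over the full sets the medians were 24.0% for the 2501 and 16.9% for the 1151. In the sets of 100, at least 75% of the 4-week effect was present at 1 week for 19 of the 100 falls and 1 of the 100 rises, and at least 50% for 33 and 2. This difference between the sets was not tested.

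The *hippo (RNAi)* libraries did not contribute equally. In the 100 largest later rises the median deviation from the control mean was 0.26 in 252O, 0.48 in 253O and 0.47 in 254O, while the controls lay between -0.05 and 0.07. In the 100 largest later falls it was -0.22, -0.32 and -0.37, with controls between -0.01 and 0.02. Every *hippo (RNAi)* library was thus beyond the controls in both sets, and 252O was the nearest to them. Whether this reflects the animals of that pool or the library was not tested.

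**Figure D5:**
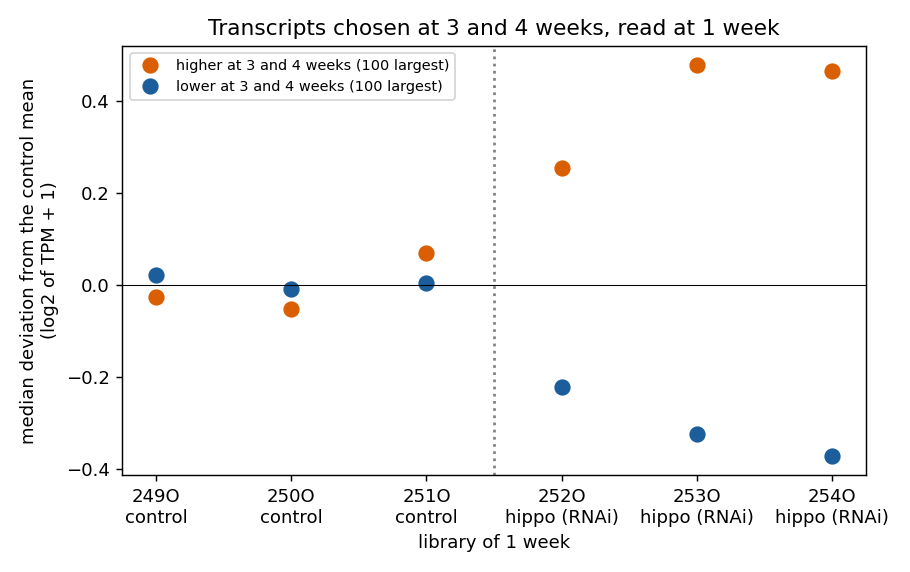
Median deviation from the control mean, in log2 of TPM + 1, in each library of 1 week for the 100 transcripts with the largest rise (orange) and the largest fall (blue) at 4 weeks among those called at both 3 and 4 weeks. The *hippo (RNAi)* libraries lie between 0.26 and 0.48 for the rises and between -0.37 and -0.22 for the falls, outside the range of the controls.

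The early rises that were not called again were of lower abundance than the others. The 26 rises called at neither later week had a median level of 3.38 TPM over the 18 libraries, against 45.4 TPM for the 162 called at one or both, and a median log2 fold change at 1 week of 0.85 against 0.31. In this group 16 of 26 belonged to an assembly number with several transcripts, against 34 of 162, where 38.7% of all tested transcripts did. A value of 0 in at least 1 library of 1 week occurred for 6 of the 26, against 2 of the 162. The part that reads divided between transcripts of one number had in these rises was not tested.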

How the data were processed

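RNA of whole planarians was sequenced as stranded paired-end poly(A) libraries. The authors estimated abundances with kallisto 0.43.0 against the dd_Smed_v6 assembly, and the table they deposited holds TPM. For read numbers, trimming and filters, nothing was given in the sources used here. TPM have a fixed total, so depth is unknown.

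Libraries were grouped by the treatment and week in the labels. From the deposited TPM, log2(TPM + 1) was compared with limma 3.58.1 in R 4.3.3 (6 group means over 18 libraries, trend in the variance, Benjamini-Hochberg, FDR 0.05) for transcripts averaging 1 TPM or more. Scripts were tested on simulated data. Figures were drawn with matplotlib 3.10.9. Named were the 20 listed genes (most abundant transcript of each code) and the 2 largest rises and 2 largest falls among transcripts called in all fits without 1 library and with groups that did not overlap. Other gene names, *hippo* and marker genes among them, could not be matched and are not reported here. Members and lists were chosen with earlier results of these data known. Alternatives were other pseudocounts, filters, scalings, thresholds, weights and libraries.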

Additional observations from a re-analysis of the deposited data

Results flagged for a closer look

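For 12 of the 24 named transcripts the effect of *hippo* inhibition differed between 4 weeks and 1 week by the test of that difference in limma. Over all tested transcripts this test was called more positive for 6.25% and more negative for 3.47%. The authors chose the listed genes from this series, and the transcripts known by identifier were chosen by their size at 1 week. The count is therefore a description. The log2 fold change was more positive at 4 weeks by 0.90 for *insulin-like growth factor*, 0.87 for *progranulin*, 0.83 for *dynamin 1-like*, 0.64 for *protein tyrosine phosphatase* and 0.50 for *septin 4*. These 5 genes were called higher at 1 week. It was also more positive by 0.28 for *CDC42*, 0.27 for *afadin* and 0.19 for *kinesin family member 2A*, which were not called at 1 week. For *lysosomal acid lipase* the difference was -1.06, a fall that deepened.

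Among transcripts known by identifier, the difference was 1.92 for dd_Smed_v6_1616_0_1, a rise that grew, and -0.40 for dd_Smed_v6_4384_0_1, a fall that was already large at 1 week. It was -2.40 for dd_Smed_v6_5675_0_28, which was listed at 0 in every library of 4 weeks. The last of these is 1 of 35 transcripts under one assembly number. It passed the filter of 1 TPM only through groups in which it was high, so its value is a description.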

How the results depend on the processing

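The main counts were 188 rises, 56 falls, 6 listed genes, 204 calls shared with both later weeks and 2794 transcripts whose effect differed between 4 weeks and 1 week. Leaving out 1 library of 1 week gave 33 to 327, 22 to 76, 1 to 6, 51 to 339 and 2263 to 2605. At an FDR of 0.01 they were 40, 19, 1, 55 and 1431. At an FDR of 0.1 there were 383 rises, 141 falls and 397 shared calls. With at least 1.5-fold required they were 37, 33, 0, 35 and 637. The 6 libraries of 1 week alone gave 6 rises, 23 falls and 0 listed genes. In that fit 9 of the 20 listed genes had an unadjusted p under 0.05 by limma, beside 2581 of all 28735 tested transcripts. The filter of 10 TPM, which tests fewer transcripts, gave 103 falls and 335 shared calls, and array weights 33 falls. The cause of these shifts was not tested. Pseudocounts of 0.1 and 5 TPM, no filter, median-ratio scaling and summed transcripts kept all 5 counts within 1.5 times.

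Of 330 alternative values of the 24 named transcripts, 292 kept direction and side of the threshold and 30 kept direction but lost the call. *RASSF1*, at 0.01, changed sign with median-ratio scaling (-0.0073), summed transcripts (-0.016) and array weights (-0.0051), and ranged from -0.083 to 0.063 without 1 library. *discs large*, at 0.00, ranged from -0.026 to 0.025. No paired analysis was possible because the labels give no replicate numbers. Each group has 3 libraries, and TPM do not show which values rest on few reads.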
